A study of Drosophila melanogaster with 4 samples.

Results

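The narrow strong regions are 463 short stretches of chromatin, out of 5074 enriched regions, that were rich in RNA polymerase II phosphorylated on serine 5 of its C-terminal repeats. They were chosen by the authors' score and by width from the list deposited for both replicates at once, the combined list. A member had a score of 2.0 or more, was narrower than 3000 bp, and lay on an assembled chromosome arm (X, 2L, 2R, 3L, 3R or 4). The 6 arms held 4830 enriched regions, so the members made up 9.59% of them. The score and the width of a member in the combined list are therefore given only as a description.

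RNA polymerase II carries a long tail of heptad repeats on its largest subunit. Kinases of the initiation machinery place phosphate on serine 5 of these repeats as the enzyme leaves the promoter, and in flies much of the polymerase with this mark pauses shortly downstream of the start site. Chromatin precipitation with an antibody against the mark therefore often gives a compact peak at a start site, while a polymerase that is spread along a transcribed unit gives a longer domain. Genes with a paused polymerase, among them heat shock and developmental genes, are the textbook examples of the compact form in Drosophila cells. This background is not a result of these data: which of the members lie at start sites was not measured, because positions in the files are those of FlyBase release 5 and the gene table at hand is of release 6. No gene is named for the same reason, and regions are given by arm, start and end in release 5.

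The cells were Kc167, a female line derived from late Drosophila melanogaster embryos, with the genotype given as se/e. In all libraries they were fixed with 1.8% formaldehyde for 10 min. The study held 2 ChIP libraries made with a rabbit polyclonal antibody to the Ser5-phosphorylated repeat and 2 input DNA libraries of the same line. Regions were called by the authors in each ChIP replicate and in the replicate set. Input region lists are not analysed here, so there is no matching background level. The replicates are numbered, but the labels do not tie them to separate cultures, and their spread may be technical. The lists give no read counts and the depth is unknown. A higher score from more cells with polymerase at a place cannot be told apart from a higher score from more polymerase per cell.

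The members varied little in width, but the rule itself sets an upper limit to it. Their median width in the combined list was 2.36 kb, with quartiles of 2.27 and 2.53 kb. The median was 3.06 kb in the 4367 other arm regions, which include all regions over the width limit, so this difference follows from the rule. Regions under the same width limit that scored below the minimum had a median of 2.12 kb, with quartiles of 1.88 and 2.31 kb. Of the 463 members, 255 (55.1%) were at least 2200 bp and narrower than 2400 bp. Of the regions that met the rule in a replicate list, 56.2% in replicate 1 and 55.5% in replicate 2 fell in this band. Their median width was 2.36 kb ± 0.0134 (SD, n = 2). They were chosen under the same width limit, so the similar widths are in part set by the rule. Scores of the members ran from 2.00 to 5.07 with a median of 2.63 and quartiles of 2.33 and 3.04. Among members, score and width were only loosely related (Spearman's rho across regions 0.234 for the combined list and 0.147 and 0.235 for replicates 1 and 2, where all regions of a list share its libraries).

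Values ran on closely across both limits of the rule. Just above the score minimum stood 2R at 6003988 to 6006504, X at 2034198 to 2036764, 3L at 16082238 to 16084772, 2L at 9124698 to 9126908 and 2L at 15273874 to 15276118. Just below it stood 3L at 7520826 to 7523114, 2L at 11527044 to 11529266, 3L at 587666 to 590312, 2R at 20430116 to 20432392 and 2L at 2565664 to 2566696. The first of the regions below the minimum scored 2.16 in replicate 1 and 1.89 in replicate 2, and the second of those above it scored 1.94 in replicate 1 and 2.07 in replicate 2, so single libraries would have placed them differently. At the width limit, the widest member, on X at 11282644 to 11285640, was 2997 bp wide as combined, and 2728 and 2797 bp wide in replicates 1 and 2. The narrowest strong region outside the limit, on 2R at 6323694 to 6326700, was 3007 bp wide in the combined list and 2974 and 2987 bp in replicates 1 and 2.

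The replicates placed nearly all members in the same positions, and a small group of 26 members stood apart. Of the 463 members, 439 were overlapped by at least 1 bp of an enriched region of replicate 1 and 438 by one of replicate 2. Over all 4830 arm regions these percents were 89.8 for replicate 1 and 90.4 for replicate 2. Both replicates overlapped 437 members (94.4%), against 88.2% of all arm regions, and each of the 437 had exactly 1 partner in each replicate. Such a 1-to-1 match was found for 80.2% of all arm regions. By class, the share found in both replicates was 99.9% of wide strong, 99.5% of wide weak and 74.8% of narrow weak regions, so wide regions of either strength were found more often than members (wide means 3000 bp or more, weak a score under 2.0). No member was divided into several regions in a replicate, as was the case for 7.89% of all arm regions, but no narrow weak region was divided either. The combined list is named as that of the replicate set, so overlap with the replicate lists is no independent test.

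**Figure D1:**
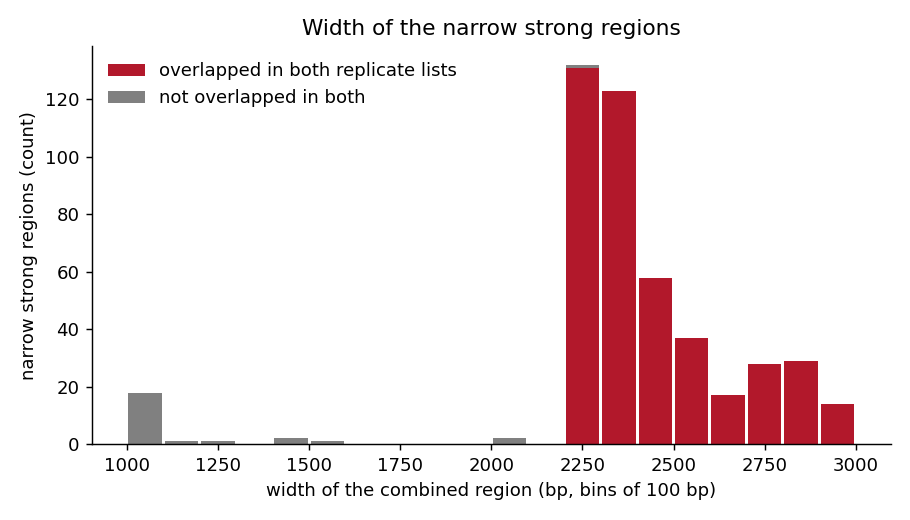
Width of the 463 narrow strong regions in the combined list (x axis, bp, bins of 100 bp) against their number (y axis), divided by whether both replicate lists overlapped the region. The 437 regions found in both replicates begin at 2205 bp, while those not found in both lie mostly near 1001 bp.

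Most of the 26 members without support from both replicates differed from the rest in width. The 437 matched members were between 2205 and 2997 bp wide, with a median of 2369 bp. Neither replicate overlapped 23 of the 463 members, a smaller share than the 384 of all 4830 arm regions (7.95%). These 23 were between 1001 and 1531 bp wide, with a median of 1013 bp, and 9 of them were exactly 1001 bp, the smallest width in the combined list. The narrowest enriched arm region was 1304 bp in replicate 1 and 1303 bp in replicate 2, so 20 of the 23 were narrower than any region of a replicate list. In the combined list, 252 arm regions were narrower than 1303 bp. By the rule, the members among them, these 20, are those with a score of 2 or more. Only 11 of the 252 were overlapped by a region of a replicate list, so weak regions of such widths mostly lacked support as well.

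The scores of the 23 were also unlike those of the matched members. They took only 12 distinct values, and 17 of the 23 shared their score with another of the 23 (equal to 9 decimals). A score of 3.11 occurred in 4 of them, and scores of 2.03, 2.59 and 2.95 in 3 each. None of the 437 matched members shared its score with another of the 437. The median score was 2.59 in the 23 and 2.63 in the 437, so the score alone did not separate them. Within 2 Mb of the centromeric end of an arm lay 7 of the 23 (30.4%) and 20 of the 437 (4.58%), against 7.85% of all arm regions. On 2L, 2 of the 23 stood side by side near the end of the arm, at 23006902 to 23008432 with a score of 2.59 and at 23008576 to 23010042 with a score of 3.48.

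A further 3 members were called in 1 replicate only. On 3R, the member at 8307958 to 8310034 had a combined score of 4.00, a score of 3.44 in replicate 1 and no counterpart in replicate 2. Its neighbour at 8315928 to 8317994 held the highest score of all members, 5.07, and had a score of 3.97 in replicate 2 and no counterpart in replicate 1. The 2 members lay 5.89 kb apart, were 2.08 and 2.07 kb wide, and each replicate thus called a different one of the pair. Regions around them were called in both replicates, but not all of them alike. In the combined list a 3.03 kb region at 8301950 to 8304980 scored 2.94, with 2.99 and 2.88 in replicates 1 and 2. A 10.0 kb region at 8327106 to 8337142 scored 2.96, with 2.99 and 2.98 in replicates 1 and 2. The region nearest to the member at 8315928, 5.25 kb wide at 8321154 to 8326398, scored 2.05 in the combined list. In its place replicate 1 held a region of 2.63 kb with a score of 1.75. Replicate 2 held 2 regions there, with scores of 2.07 and 2.42. The third member, on 2L at 21423996 to 21426232 with a score of 2.55, was matched in replicate 1 by a region of 1.34 kb that scored 2.59. Beside it the combined list held a wide strong region of 4.52 kb that scored 3.27. Replicate 2 had no region at either place, and replicate 1 had one of 1.37 kb with a score of 3.91 in the wide one.

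For the 437 matched members the replicate scores went together closely, and so did those of each other class. Pearson's r was 0.967 and Spearman's rho 0.963 across the 437, which share 2 libraries and are no replicates of each other, so no p is given. Pearson's r was 0.966 in matched wide strong, 0.966 in narrow weak and 0.963 in wide weak regions, and 0.989 over all matched arm regions. The median absolute difference of the replicate scores was 0.082 in members and 0.075 in the other matched regions. The median score of the 437 was 2.68 in replicate 1 and 2.62 in replicate 2. The score in replicate 1 minus that in replicate 2 averaged 0.04 with an SD over regions of 0.12, and it was positive in 274 of the 437, against 42.5% of all matched arm regions. The same difference averaged -0.02 with an SD of 0.12 in the 3436 other matched regions. No shift between libraries was read from this. The members had been chosen by the rule in the list of the replicate set, so meeting it in the replicates is no independent test. In 425 of the 437 (97.3%) both replicate regions scored 2.0 or more and were narrower than 3000 bp. The other 12 failed by score alone in 1 replicate, 7 of them in replicate 1 and 5 in replicate 2, and none scored below 1.91.

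**Figure D2:**
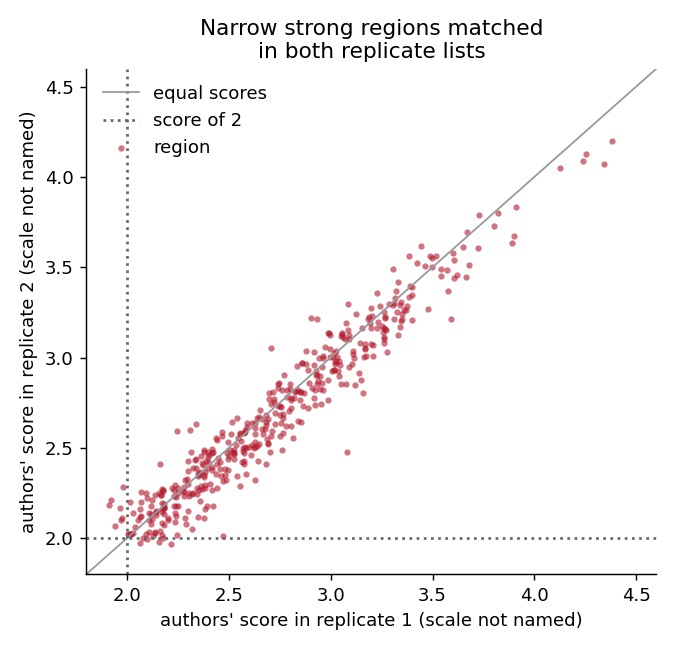
Score of each of the 437 matched narrow strong regions in replicate 1 (x axis) and replicate 2 (y axis), with the line of equal scores and dotted lines at the score minimum of 2. The points lie along the line (Pearson's r 0.967), and 12 fall below 2 in one of the replicates.

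The edges of the members were also called at closely similar places. In matched members the starts differed between the replicates by a median of 15 bp and the ends by 16 bp. This compares with 35 and 34 bp in the other matched regions, and with 25 and 26 bp in the narrow weak ones. The centre of a member moved by a median of 9 bp between the replicates. At most 50 bp was the shift in 409 of the 437 (93.6%), against 64.9% of all matched arm regions and 76.3% of matched narrow weak regions. Among the other classes the median shift of the centre was 39.5 bp in wide strong regions, 21.5 bp in narrow weak regions and 65 bp in wide weak regions. The largest shift of a member was 413 bp. Width was part of the rule, and no test was made.

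Few members disagreed in score. The largest difference, 0.60, belonged to 2L at 21458278 to 21460484, which scored 3.08 over 2186 bp in replicate 1 and 2.48 over 1382 bp in replicate 2. On X, 14716530 to 14718740 scored 2.47 in replicate 1 and 2.01 in replicate 2. On 3R, 22286160 to 22288510 scored 3.59 and 3.22, and on 2L, 16449972 to 16452274 scored 3.16 and 2.80, in replicates 1 and 2. These 4 were higher in replicate 1, and the next, on 2R at 10867686 to 10870050, was higher in replicate 2 with scores of 2.24 in replicate 1 and 2.59 in replicate 2.

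Applied to each replicate list on its own, the rule chose 532 regions in replicate 1 and 494 in replicate 2, a mean of 513 ± 26.9 (SD, n = 2). Of these, 432 of the 532 and 433 of the 494 lay in a member of the combined list. A further 62 in replicate 1 and 35 in replicate 2 lay in a wide strong region of the combined list, whose median width was 3.26 kb and 3.11 kb. In the other replicate, 461 of the 532 (86.7%) and 461 of the 494 (93.3%) overlapped a region that met the rule as well.

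Narrow strong regions stood farther from their neighbours than other regions did. In the combined list the median gap from a member to the nearest other enriched region, from edge to edge, was 5.09 kb, against 2.31 kb for the 4367 other arm regions. In the replicate lists, with the rule applied to each, the median gap was 4.95 kb ± 0.0573 for narrow strong regions and 2.44 kb ± 0.0689 for all others (SD, n = 2). The difference was 2.521 kb in replicate 1 and 2.505 kb in replicate 2, larger than the spread between the replicates. An exact sign-flip permutation test over the 2 replicates gave p = 0.5 (two-sided), which is the smallest p that 2 replicates allow. The gap was also larger than in each other class: 2.54 kb ± 0.170 in wide strong, 2.76 kb ± 0.146 in narrow weak and 1.99 kb ± 0.0456 in wide weak regions (SD, n = 2).

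The distance between centres gave a smaller difference. From centre to centre the nearest region was 8.50 kb from a member and 6.97 kb from another arm region in the combined list, a difference of 1.53 kb in place of 2.78 kb. In the replicates the centre distance was 8.21 kb ± 0.254 for narrow strong and 5.98 kb ± 0.137 for narrow weak regions (SD, n = 2). For wide strong regions it was 8.31 kb ± 0.198 (SD, n = 2). Narrow strong minus wide strong was 0.040 kb in the combined list, and -0.138 and -0.059 kb in replicates 1 and 2, and the replicate values of both classes overlapped within their SD. The gap between edges is the distance between centres less the parts of both regions that lie between them, so the width that the rule limits bears on the edge gap.

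The share of isolated regions, taken from the same gaps, was also higher in members. No other enriched region lay within 5 kb of 233 of the 463 members (50.3%), against 30.9% of the other arm regions and 32.8% of all arm regions. For narrow weak regions, which fall under the same width limit, the share was 35.6%. Narrow strong minus narrow weak was 14.6 percentage points in replicate 1 and 14.1 in replicate 2. In the replicates the share was 49.6% ± 0.532 for narrow strong regions and 31.5% ± 0.537 for all others (SD, n = 2), and the difference was 18.1 percentage points in each replicate. The same exact sign-flip permutation test gave p = 0.5, again the smallest p possible. Within 20 kb, 89 members (19.2%) had no other enriched region, against 7.95% of the other arm regions and 9.03% of all. Within 50 kb 21 members (4.54%) had none, against 2.11% of the other arm regions and 2.34% of all. For narrow weak regions the shares were 10.7% at 20 kb and 3.05% at 50 kb. In the replicates the share at 50 kb was 3.89% ± 0.348 for narrow strong and 2.88% ± 0.34 for narrow weak regions (SD, n = 2). The 21 included members in neither replicate list, on 2L at 2294210, on 2R at 2238178 and 15849016, and on X at 21571336. Among the 437 members found in both replicates, 224 (51.3%) were isolated by 5 kb and the median gap was 5.24 kb, while 9 of the 23 found in neither were isolated and their median gap was 3.85 kb. The larger of the 2 gaps around a member had a median of 27.4 kb, against 15.1 kb for the other arm regions.

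**Figure D3:**
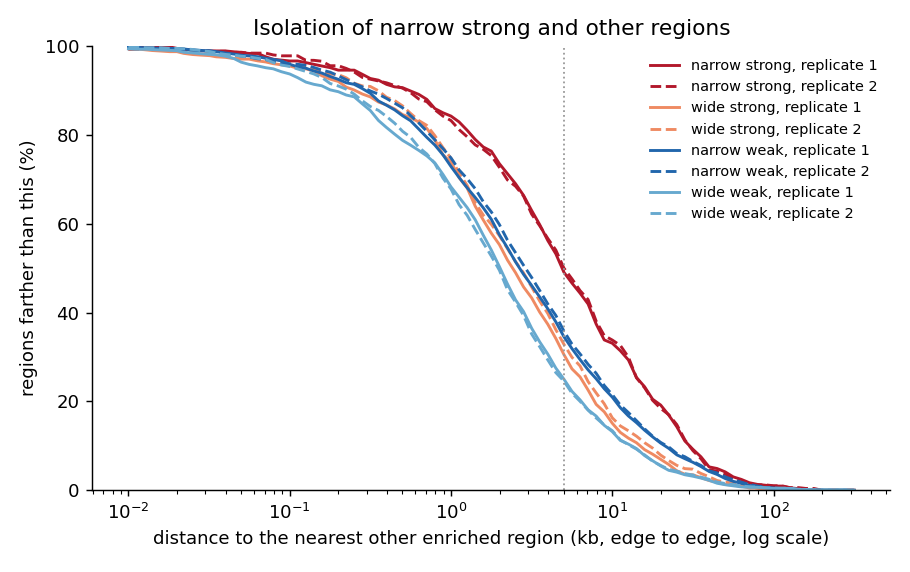
Percent of regions (y axis) whose nearest other enriched region lies farther away than a given distance (x axis, kb, log scale), for 4 classes in each replicate list, with a dotted line at 5 kb. At 5 kb the narrow strong curves stand at 49.2% in replicate 1 and 50.0% in replicate 2, above every other class.

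The farthest from any other region was a member on 2L at 14688164 to 14690408, whose nearest neighbour lay 196 kb away on one side and 306 kb away on the other. Its score was 2.63 in replicate 1 and 2.53 in replicate 2. A member on 3L at 13220652 to 13223016, with scores of 3.60 and 3.58 in replicates 1 and 2, stood 126 kb from its neighbour. On 2R, 15712986 to 15715308 scored 3.32 and 3.37 in replicates 1 and 2 and lay 97.1 kb from the next region. On 2L, 1419270 to 1421538 scored 2.95 and 2.74 and lay 80.4 kb from the next. The other of the 5 most isolated members, on 2R at 15849016 to 15850142, was in neither replicate list. The nearest region to this one, 134 kb away, was the member at 15712986, so both of the 2R members had a member as their neighbour.

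Isolation varied with the width of a member, but not in one direction. Members from 2200 to below 2400 bp had a median gap of 7.28 kb and 149 of the 255 (58.4%) were isolated by 5 kb. Members from 2400 to below 2600 bp had a median gap of 4.15 kb, and those from 2600 bp upwards 3.35 kb, with 44.2% and 37.5% isolated. The 25 members narrower than 2200 bp, most of them found in neither replicate, had a median gap of 3.16 kb, and 9 of the 25 were isolated. In replicates 1 and 2 the band from 2200 bp had the larger gap as well, with 7.37 and 7.16 kb. The bands above it did not keep their order: the median gap was 3.15 and 4.72 kb from 2400 bp and 3.47 and 3.36 kb from 2600 bp. Across members the gap correlated with width at a Spearman's rho of -0.214 over the combined list and of -0.250 and -0.201 over replicates 1 and 2, and with score at 0.0342, 0.0488 and 0.0869.

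Among all narrow regions the gap became larger with the score and showed no step at the minimum of 2.0. In the combined list the median gap was 2.05 kb for scores under 0.5, 3.00 kb from 0.5, 3.36 kb from 1.0, 3.90 kb from 1.5, 4.58 kb from 2.0 and 5.73 kb from 2.5, each up to the next limit, and 4.80 kb for scores of 3.0 or more. The replicates differed in the weakest class, where regions under 0.5 had gaps of 2.52 and 2.90 kb in replicates 1 and 2, larger than the 2.27 and 2.31 kb of the class above it. From a score of 1.0 the values of the replicates followed the same course, with 5.34 and 5.62 kb in the class from 2.5 and 4.95 and 5.11 kb at 3.0 or more.

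Out to 20 kb, the DNA beside a narrow strong region held less enriched sequence than the DNA beside each other class, and from 3 kb outwards slightly more than the arms as a whole. In the replicate lists enriched regions covered 15.0% ± 0.202 of all arm bases (SD, n = 2). From 3 to 5 kb outside the edge of a narrow strong region they covered 17.4% ± 0.215 of the bases. Over the same distance they covered 27.6% ± 0.127 beside wide strong, 26.6% ± 0.394 beside narrow weak and 33.1% ± 0.650 beside wide weak regions (SD, n = 2). At 10 to 15 kb the value beside narrow strong regions was 17.5% ± 0.559, against 24.2% ± 0.165 beside wide strong, 23.5% ± 0.159 beside narrow weak and 27.2% ± 0.393 beside wide weak regions (SD, n = 2). At 40 to 50 kb it was 17.5% ± 0.227, against 19.4% ± 0.518, 17.4% ± 0.230 and 18.6% ± 0.131 in the same order (SD, n = 2), so the difference from narrow weak regions was by then within the spread between replicates. In the first 1 kb all classes were low, with 4.83% ± 0.163 beside narrow strong regions and between 7.25% and 9.90% beside the others.

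**Figure D4:**
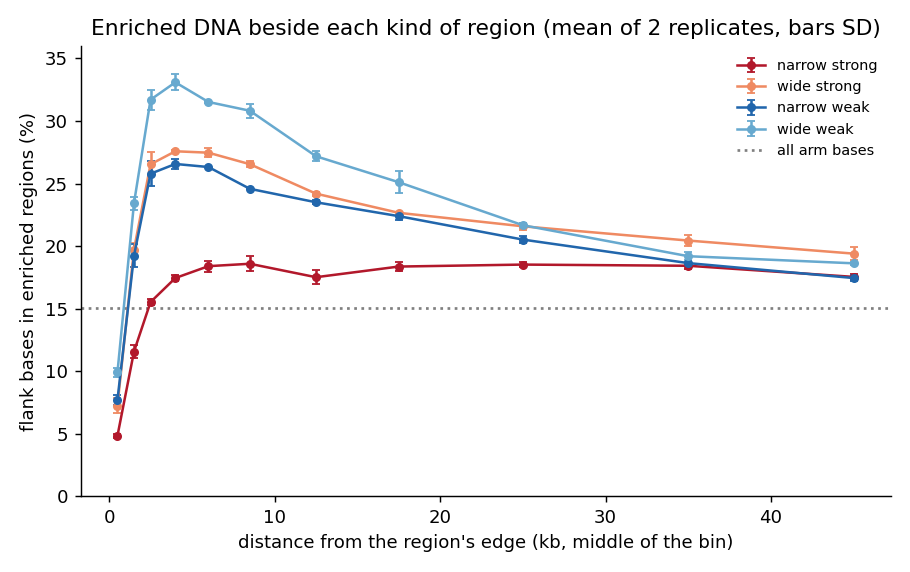
Percent of flanking bases inside enriched regions (y axis) by distance from the edge of a region (x axis, kb, both sides pooled), as the mean of the 2 replicate lists with SD bars, for 4 classes of region; the dotted line is the 15.0% of all arm bases. Narrow strong regions stay between 17.4% and 18.6% from 3 kb outwards, while the other classes peak at 3 to 5 kb and come down with distance.

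By kind, the nearest neighbour was narrow weak or wide strong about as often as for arm regions in general. It was less often wide weak and more often another member. The nearest enriched region, at any distance, was narrow weak for 45.4% of the members and 43.5% of all arm regions, wide weak for 25.9% and 32.0%, and wide strong for 16.6% and 16.3%. For 12.1% of the members it was another member. Another member was the nearest region for 8.2% of all arm regions and for 7.79% of the regions that were not members. In the replicates the share was 12.2% ± 0.603 for narrow strong regions and 9.09% ± 0.413 for all others (SD, n = 2), a difference of 3.21 percentage points in replicate 1 and 2.94 in replicate 2 (exact sign-flip permutation p = 0.5, the smallest possible).

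Pairs of members nevertheless came close to each other at a few places. Consecutive members of an arm were separated by a median of 165 kb in the combined list and by 145 kb ± 5.501 in the replicates (SD, n = 2), and 40 of 457 such gaps were 20 kb or shorter. On 2L, the members at 5026264 to 5028532 and 5028534 to 5030796, with combined scores of 2.65 and 2.46, were divided by 1 bp only. On 2R, 2764814 to 2767306 and 2767422 to 2769764, with scores of 3.52 and 2.72, lay 115 bp apart. On X, 14716530 to 14718740 and 14718912 to 14721176, with scores of 2.22 and 3.05, lay 171 bp apart, and 17779650 to 17782308 and 17782548 to 17785434, with scores of 2.15 and 2.07, lay 239 bp apart. The last of the 5 closest pairs was that at the end of 2L, 143 bp apart and in neither replicate. With regions of the combined list merged over gaps of 500 bp or less before the rule was applied, 418 regions met it.

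Along the arms, 360 of the 463 members had no other member next to them. A further 44 runs held 2 consecutive members and 5 runs held 3, with no other enriched region between them. Members were 9.59% of the enriched arm regions, so their small share alone leaves most without a member beside them. No test was made. Of the 5 runs of 3, the shortest spanned 15.8 kb on X at 17779650 to 17795404, with scores of 2.15, 2.07 and 2.13, and the longest spanned 237 kb on 2R at 15613376 to 15850142, with scores of 3.75, 3.34 and 2.11. The third member of the 2R run was in neither replicate list.

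The arms differed moderately in how many narrow strong regions they held. The 2R arm was the richest, with 4.99 ± 0.368 per Mb in the replicates, followed by 3L with 4.56 ± 0.403, 2L with 4.15 ± 0.399, 3R with 4.00 ± 0.0253 and X with 3.81 ± 0.0315 (SD, n = 2). The steps between 2R, 3L, 2L and 3R were close to or below the SD of the first 3 of them, while X lay below 3R by more than the small SD of either, and in the combined list 2R, 3L and 2L held 4.45, 4.12 and 3.95 per Mb. Chromosome 4 held 2 members, or 1.48 per Mb, and 3 regions that met the rule in each replicate. As a share of the enriched regions of the same arm, members were 10.5% on 3L, 10.4% on 2L, 9.71% on 3R, 9.24% on 2R and 8.43% on X, which puts 2R behind 2L, 3L and 3R. The members of the large arms were alike in strength, with median scores between 2.59 on 2L and 2.71 on 3R. Their median gap was between 4.12 kb on 2R and 7.46 kb on 3L.

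**Figure D5:**
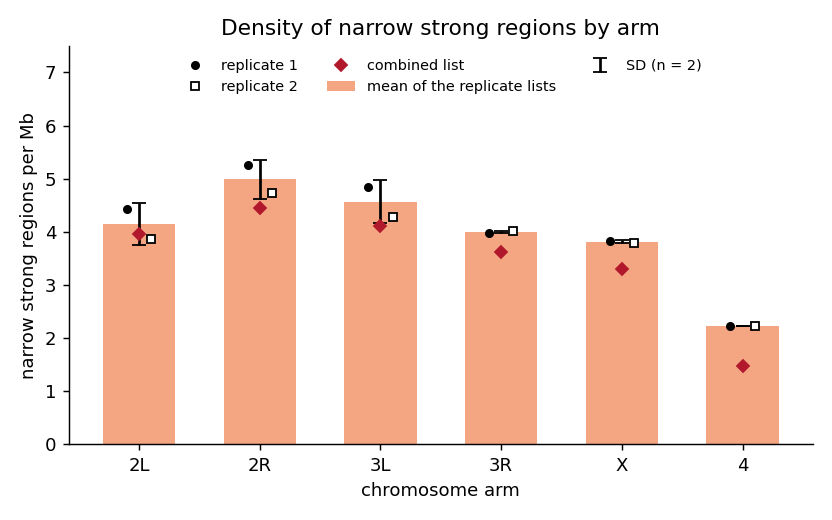
Narrow strong regions per Mb (y axis) on each chromosome arm (x axis); bars are the mean of the 2 replicate lists with SD, circles and squares the single replicates and diamonds the combined list. The 5 large arms lie between 3.81 and 4.99 per Mb, and chromosome 4 holds 2.22 per Mb from 3 regions in each replicate.

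Along the arms the members were spread over most windows. Of 120 windows of up to 1 Mb, 115 held at least 1 member and the median was 4. Windows ended at 23 Mb on 2L, 21 Mb on 2R, 22 Mb on X and 1 Mb on 4, and the arm ends beyond were left out. The pair of members at the end of 2L was therefore in no window. On 3L and 3R the last window was shorter than 1 Mb, as these arms were 24.5 and 27.9 Mb long. The richest window was 2R from 2 to 3 Mb with 13 members, and 15 and 13 narrow strong regions in replicates 1 and 2. It was followed by 3L from 17 to 18 Mb with 9 in each of the 3 lists. No member lay in 2L from 17 to 18 Mb, 2R from 0 to 1 Mb, 3R from 2 to 3 Mb or X from 7 to 8 Mb, where the replicates also had 0, nor in X from 9 to 10 Mb, where they had 1 and 2. These windows were not empty of polymerase: they held between 15 and 37 enriched regions of other classes. The longest stretch of an arm without a member, 2.37 Mb on 3R between 1344096 and 3711246, held 61 other enriched regions. Over the 120 windows the number of members and of all enriched regions correlated with a Pearson's r of 0.372 and a Spearman's rho of 0.377, where members are part of the total and windows are not replicates.

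The strongest members by the lower of their replicate scores were not alike in their surroundings. Their small width in the combined list was set by the rule. On 2L, 21213770 to 21216298 scored 4.38 over 2498 bp in replicate 1 and 4.20 over 2537 bp in replicate 2, with a weak region 0.317 kb away. On 3R, 19683908 to 19686492 scored 4.26 and 4.13 in replicates 1 and 2 and had no neighbour within 28.0 kb. Of 2 members on 2L with a single other region between them, 13243228 to 13246070 scored 4.24 and 4.09 and 13214698 to 13217354 scored 4.34 and 4.07, at 19.4 and 1.34 kb from the nearest region. On 3L, 3089686 to 3092266 scored 4.13 and 4.05 at 6.88 kb from its neighbour, and 1462484 to 1465154 scored 3.91 and 3.83 at 26.5 kb. The most isolated of these 10 was 3L at 15227618 to 15229958, with scores of 3.73 and 3.79 and a nearest region 67.6 kb away. The least isolated was 3R at 10956266 to 10958816, with scores of 3.80 and 3.73 and a wide weak region 23 bp away. The other 2, on 3R at 3918530 to 3921022 with scores of 3.82 and 3.80 and on X at 10241048 to 10243564 with scores of 3.90 and 3.67, had neighbours at 1.11 and 14.8 kb.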

How the data were processed

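The authors deposited 1 region list for each ChIP replicate and 1 for the replicate set, which was printed as their value with no SD. Each holds enriched and depleted regions with positions in FlyBase release 5, per the file headers. The scale of the score is not named in the files the authors deposited, so no fold was drawn from it, and it served to describe, rank and filter regions. In 97, 108 and 90 cases of the combined, replicate 1 and replicate 2 lists some other score of the list was larger by exactly 1 (tolerance 1e-10), and in 0 cases was one larger by the common or natural logarithm of 2. The submitters' processing notes name Bowtie 0.12.7. Not given in the sources used here are the caller of the regions, the threshold and control it used, and the way replicates were combined.

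Only enriched regions on the 6 arms were used. Members met the rule in the combined list, and for values with an SD the rule was applied in each replicate list. Arm lengths came from the file headers. Overlap needed 1 bp. A gap counts the bases between edges. The named regions are the 10 with the highest lower replicate score, the 5 most isolated, the 5 closest pairs, 5 on each side of each limit (values for the first ones only), the 5 with the largest difference between replicates, the longest runs, and the richest and poorest windows of 1 Mb, with the 3 called in 1 replicate added after their values were seen. Differences of spacing were tested with an exact two-sided sign-flip permutation test over the 2 replicates. Regions are not replicates and were not resampled. The interval functions were tested on simulated data with known answers. Members, classes and thresholds were chosen with earlier results of these data known, and width bands, score classes and distances from the arm end after the values were seen. Alternatives were other score and width limits, merging over gaps of 500 bp or less, a reciprocal overlap of 50%, single replicate lists, depleted regions as neighbours or as matches, neighbours shared with both replicates only, distance between centres, and isolation at 2 and 10 kb. Start sites were not tested, because no annotation of release 5 was used here and positions are not converted to release 6. Scripts ran in Python 3.11.15 with pandas 2.3.3, numpy 2.4.6, matplotlib 3.10.9 and scipy 1.17.1.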

Additional observations from a re-analysis of the deposited data

Results flagged for a closer look

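Regions that met the same limits of score and width also lay outside the arms, in sequence that the comparisons above do not use, and they drew attention as a signal outside the main measurement. No level of such regions in the input libraries was at hand to set beside them. On the heterochromatin scaffolds and the unplaced sequence U, the combined list held 47 such regions among 244 enriched ones (19.3%), of which 37 were on U. Replicate 1 held 29 among 166 (17.5%) and replicate 2 held 29 among 170 (17.1%). On the arms such regions were 9.59% of the enriched ones in the combined list and 11.0% ± 0.481 in the replicates (SD, n = 2). How many of the 47 were overlapped by a region of a replicate list is not given here.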

How the results depend on the processing

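No paired analysis was possible because the input libraries, which share replicate numbers with the ChIP libraries, have no region list used here. The distance to the nearest region stayed larger for narrow strong than for other regions in all 10 alternatives tried, with differences from 1.53 kb, when taken between centres in place of edges, to 3.72 kb when only regions shared with the replicates were kept, and the share isolated stayed higher in all 4, by 17.2 to 18.3 percentage points. None of these can pass a threshold with 2 replicates. A score minimum of 2.5 left 278 members in place of 463, and one of 1.8 gave 570. A width limit of 2500 bp gave 338 members and one of 4000 bp gave 641. The percent found in both replicates was 93.5 with a minimum of 1.8, 93.9 with 2.5, 92.3 with a width limit of 2500 bp and 95.9 with 4000 bp, against 94.4. With the width limit alone in the replicates, 100% of the matched members met it. With the list of a single replicate, the number of members was 494 to 532 and the median gap between consecutive members 141 to 149 kb. Members per Mb were then 3.87 to 4.43 on 2L, 4.73 to 5.25 on 2R, 4.28 to 4.85 on 3L, 3.98 to 4.01 on 3R, 3.79 to 3.84 on X and 2.22 on 4. The cause was not tested. A reciprocal overlap of 50% left the match of members and their r and edges as they were. The depth is unknown, so its limits cannot be given.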
